A study of Mus musculus with 8 samples.

Results

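The genes described here encode the E2 enzymes, which carry ubiquitin or a ubiquitin-like protein between the activating and the ligating step of protein conjugation. Members were the gene probes whose gene name, or whose gene by RefSeq accession, begins with Ube2 or is Cdc34. They were 40 genes of the 47242 gene names on the array, read by 57 of 60273 probes on 65 of 61473 gene spots. Each probe is a short stretch of DNA fixed to the glass, and its brightness after hybridisation is the measurement. The family was chosen by measured values of the comparison below, in which Ube2q2 and Ube2f were among the genes with the smallest p-values. The members' differences between the groups are therefore a description. Standard errors, p-values and calls given for them come from the fit over all genes and test nothing about the family.

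In the conjugation cascade an E1 enzyme activates the modifier with ATP and hands it to the active-site cysteine of an E2. The charged E2 then meets an E3 ligase, which selects the substrate, and the E2 often decides which kind of chain is built. NEDD8 and ISG15 are ubiquitin-like proteins with E2 enzymes of their own. NEDD8 on a cullin switches on the largest class of ubiquitin ligases, and ubiquitin chains in macrophages carry signals from pattern recognition receptors to NF-kappaB as well as marking proteins for the proteasome.

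The cells came from mouse bone marrow chimeras after an experimental stroke, in which a 30 min occlusion of the middle cerebral artery was followed by 7 days of reperfusion. The donor marrow carried DsRed, a red fluorescent protein, and was either Psgl1+/+ or Psgl1-/- (Selplg knockout), while all recipients were wild type. PSGL-1, encoded by Selplg, is the selectin ligand with which leukocytes roll on the vessel wall. CD11b+ cells were enriched on magnetic beads after myelin removal, then sorted as PI-, DsRed+, CD11b+, Ly6G-, CD3- and CD45hi, and RNA was read on 8 single-colour arrays, 4 of each genotype. The arrays of the Psgl1+/+ group are replicates 1 to 4 and those of the Psgl1-/- group replicates 5 to 8. Both groups share DsRed marrow, transplantation, occlusion and sort. The knockout sits only in cells of donor origin, and cells of the host that lack DsRed fall outside the gate. Neither the age of the mice nor the number of animals behind each sample is stated in the labels, so p-values measure the spread between these samples, which may be technical. In such bulk samples fewer cells of a type and less RNA per cell cannot be told apart.

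Values below are log2 processed signals, after the 75th percentile of each array was set equal. Before that step the 75th percentile ran from 487.8 to 703.3 on the Psgl1+/+ arrays and from 758.7 to 892.9 on the Psgl1-/- arrays. Between 76.1% and 88.2% of gene spots of an array were well above background. Over all tested genes, arrays correlated at 0.75 to 0.79 within a group and at 0.72 to 0.79 between groups. The probe of Selplg, the targeted gene, read 12.66 to 15.74 on the Psgl1+/+ arrays and 12.88 to 13.45 on the Psgl1-/- arrays, a difference of -0.62 (SE 0.65, limma adjusted p = 0.698). The deleted part of Selplg is unknown here, so this probe checks nothing about the labels. The 12 macrophage and monocyte markers, Itgam (CD11b) and Ptprc (CD45) among them, were well above background on all 8 arrays. So were all 9 astrocyte and oligodendrocyte markers and 7 of 8 neuron markers, so this flag does not tell cell types apart. All arrays lay on 1 slide, whose columns 1 and 2 held Psgl1+/+ arrays and columns 3 and 4 Psgl1-/- arrays, so the slide position along this axis and the genotype cannot be told apart.

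Several members were read by more than 1 probe, and the results turn on which probe is read. The opening 30 bases of the probes concerned are printed 5′ to 3′. Capitals mark GTAAG, the letters with which many introns begin, searched on the strand printed.
Ube2q2, NM_180600.3: atggctggtacacacctccaaaggaagatg
Ube2f, NM_026454.3, bright probe: aagtgtgtctgggcctcaagagagttgtct
Ube2f, NM_026454.3, dim probe: cttcccagaatgcatagtcattcactgtag
Ube2f, ENSMUST00000191533: cggctcagtttcctccgtctccggtgggca
Ube2f, ENSMUST00000189589: ttggagttaactgGTAAGactaagggggtg
Ube2f, ENSMUST00000185697: GTAAGtgtaccaagctGTAAGagttgccat
Ube2w, NM_001271017.1: tacttcctgctagccatcagcatgagccct
Ube2w, NM_001271016.1: aagaactgttggctttgcagaatgacccac
Ube2e1, NM_009455.3: agatgagtttgttacctcgtatatgtaaaa
Ube2e1, ENSMUST00000161580: tgtgatttctgtctttggctcttgtctgag

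The whole probes of the family were 45 to 58 bases long, with a median of 52. Their GC content ran from 29.4% to 67.9%, with a median of 41.8% against 44.4% over all gene probes, and the highest was that of the Ube2f probe for ENSMUST00000191533. GTAAG stood in 3 of the 57 member probes (5.3%), 2 of them probes of Ube2f, and in 2.8% of all gene probes. The polyadenylation hexamers AATAAA or ATTAAA stood in 7 member probes (12.3%) and in 8.8% of all gene probes. These are matches of letters and were not tested as sites. Of the 57 probes, 43 were designed on RefSeq transcripts, 8 on Ensembl transcripts, 5 on cDNA clones and 1 on a predicted non-coding RNA. No stretch longer than 13 bases was shared between probes of the family, the longest being between Ube2j2 and Ube2c. The Ube2l3 probe is listed in the files with 9 accessions, near-identical copies among them, so its signal cannot be assigned to Ube2l3 alone. The members lie on 16 chromosomes. Genome positions printed below are the intervals listed for the probes, which are longer than the probes themselves.

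Each gene was represented by its probe with the highest mean over the 8 arrays, and was tested if at least 4 arrays held it well above background. This held for 39 of the 40 members. Ube2dnl1, a Ube2d-like gene on the X chromosome, was the exception, with signals from 0.97 to 4.09 and 1 array well above background. By limma with Benjamini-Hochberg adjustment over 42432 genes, 0 members and 1 gene in all (0.00236%) passed the adjusted threshold of 0.05. At an unadjusted p under 0.05 stood 5 members (12.8%), against 10.3% of all tested genes. The members were Ube2f, Ube2q2, Ube2w and Ube2k, higher in Psgl1-/-, and Ube2o, lower. Over all genes 1.65% were at that level and higher and 8.61% lower. All 4 Psgl1-/- arrays lay above all 4 Psgl1+/+ arrays in 3 members, Ube2f, Ube2q2 and Ube2w, against 0.667% of tested genes. The opposite held in 1 member, Ube2o, against 10.4% of tested genes. The comparison had served to choose the family, so nothing is read from these counts.

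The difference, always Psgl1-/- minus Psgl1+/+, was positive in 17 members and negative in 22, with a median of -0.08 where the median of all tested genes was -0.31. With quantile, array median or normexp scaling, or in the value table, the split was 21 positive to 18 negative, and with cyclic loess 23 to 16. Differences above 1 were seen in 10 members (25.6%), against 9.79% of all tested genes and 14.3% of the 16852 genes that a RefSeq mRNA probe read. Differences below -1 were seen in 5 members (12.8%), against 12.2% of all tested genes.

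**Figure D1:**
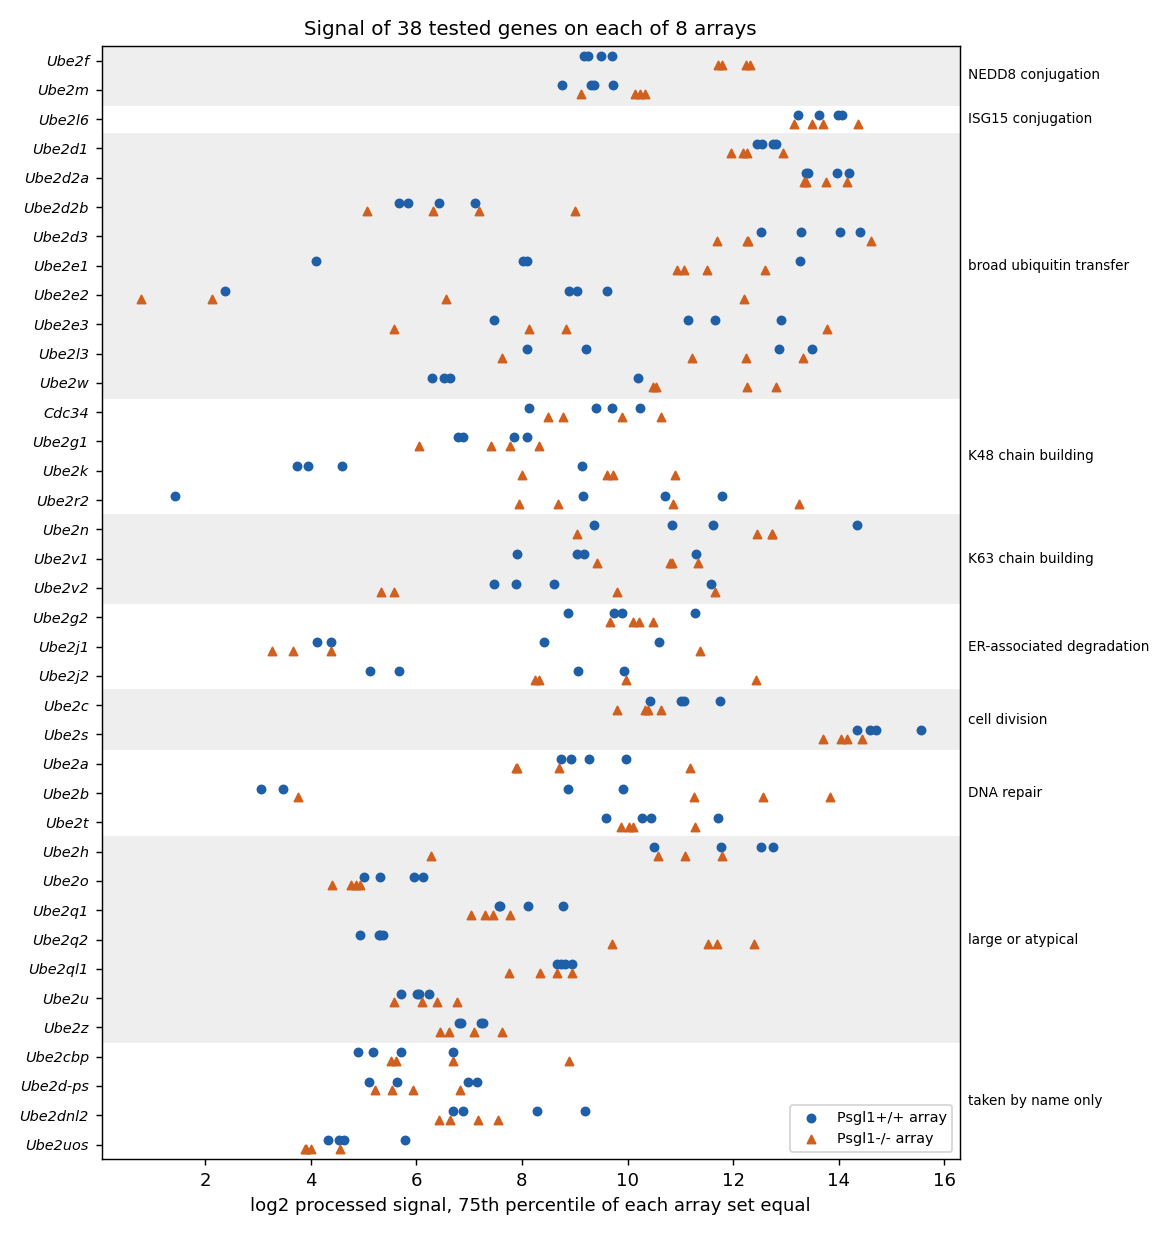
Log2 processed signal (x axis, 75th percentile of each array set equal) of 38 of the 39 tested genes on each of the 8 arrays, by class of enzyme. Circles are the 4 Psgl1+/+ arrays and triangles the 4 Psgl1-/- arrays, and levels are compared only within a gene. The groups stand apart in Ube2f, Ube2q2, Ube2w and Ube2o, while the Ube2e2, Ube2r2 and Ube2b arrays of a single group spread over 10 log2 units or more.

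The NEDD8 enzymes are Ube2f, which serves chiefly cullin 5, and Ube2m, which serves the other cullins. The bright Ube2f probe read 9.26, 9.18, 9.49 and 9.70 on the Psgl1+/+ arrays and 11.79, 12.24, 11.72 and 12.32 on the Psgl1-/- arrays. The groups lay apart by more than their own width, and no other tested member had arrays so close together within its groups, the widest range of a group being 0.6. The mean went from 9.41 ± 0.24 in Psgl1+/+ to 12.02 ± 0.31 in Psgl1-/- (SD, n = 4 arrays each). The difference was 2.61 (SE 0.26), or 6.1-fold. Ube2m read 9.72, 9.31, 8.76 and 9.37 on the Psgl1+/+ arrays and 9.11, 10.34, 10.15 and 10.23 on the Psgl1-/- arrays. Psgl1-/- replicate 5 lay among the Psgl1+/+ arrays, and the other 3 above them. The difference was 0.67 (SE 0.37).

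The other probes of Ube2f did not repeat the difference of the bright probe. The probe for ENSMUST00000191533 (mm9 chr1:93147371-93147430) read 7.51, 7.53, 7.53 and 8.25 against 7.21, 7.31, 7.29 and 7.63, a difference of -0.35 (SE 0.27). The probe for ENSMUST00000189589 (mm9 chr1:93161634-93161693) read 5.63, 5.55, 5.48 and 6.49 against 5.34, 5.32, 5.0 and 5.04, a difference of -0.61 (SE 0.30). The probe for ENSMUST00000185697 (mm9 chr1:93181482-93181541) read 4.53, 4.30, 4.95 and 5.34 against 4.61, 3.92, 3.92 and 3.92, a difference of -0.68 (SE 0.33). All 3 differences were small and negative, and only in ENSMUST00000189589 were the groups apart. The intervals listed for these probes span 34171 bases, and 2 of the probes are those that hold GTAAG. Whether their positions are exonic or intronic in mm9 was not analysed here. The dim probe, designed on the same RefSeq transcript as the bright one, read 2.06, 1.24, 2.37 and 1.61 against 10.24, 9.16, 2.14 and 1.37. It was well above background only on Psgl1-/- replicates 5 and 6, so the probes of a single transcript did not give a single pattern. Over the 8 arrays the tested Ube2f probes correlated with each other at -0.65 to 0.85 (Pearson, a description over arrays that the probes share).

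Ube2l6 is the interferon-induced enzyme that conjugates ISG15. It read 14.06, 13.23, 13.99 and 13.63 on the Psgl1+/+ arrays and 13.50, 13.71, 13.15 and 14.36 on the Psgl1-/- arrays. The groups covered the same range, and the difference was -0.05 (SE 0.34). A further Ube2l6 probe, for ENSMUST00000102642, was well above background on 1 array only.

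Among the 9 tested enzymes that pass ubiquitin to many ligases, Ube2w, which can add ubiquitin to the N terminus of a protein, had the largest difference. Its brighter probe read 6.64, 6.30, 6.53 and 10.20 on the Psgl1+/+ arrays and 10.49, 12.81, 12.26 and 10.53 on the Psgl1-/- arrays. Psgl1+/+ replicate 4 came close to the lowest Psgl1-/- array, and the groups did not overlap. The means were 7.42 ± 1.86 and 11.52 ± 1.19 (SD, n = 4 each), a difference of 4.11 (SE 1.00). The other Ube2w probe read 6.96, 6.63, 7.47 and 6.58 against 6.95, 6.60, 12.68 and 5.93, a difference of 1.13 (SE 1.41). It was high on Psgl1-/- replicate 7 alone, and the other 7 arrays lay between 5.93 and 7.47.

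Ube2e1 belongs to the class III enzymes, which have an N-terminal extension. Its brighter probe read 8.03, 8.09, 4.10 and 13.26 on the Psgl1+/+ arrays and 10.93, 11.07, 11.51 and 12.61 on the Psgl1-/- arrays. The Psgl1-/- arrays were close together, the Psgl1+/+ arrays spread on both sides of them, and the difference was 3.16 (SE 1.71). The probe for ENSMUST00000161580 (mm9 chr14:19156472-19156531) read 7.67, 7.00, 7.32 and 7.87 against 7.17, 7.12, 6.91 and 7.03, a difference of -0.41 (SE 0.27). The probes of Ube2e1 thus pointed in opposite directions, with a correlation of -0.01 over the 8 arrays. The probes used for the other class III enzymes had wide spreads, with a difference of -2.06 (SE 2.74) in Ube2e2 and of -1.72 (SE 1.84) in Ube2e3. A dimmer Ube2e2 probe had narrower groups, at 5.39 ± 0.56 in Psgl1+/+ and 4.47 ± 0.52 in Psgl1-/- (SD, n = 4 each). It differed by -0.93 (SE 0.39), and its Psgl1-/- arrays lay wholly lower, as in 10.1% of all tested probes.

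The UbcH5 enzymes Ube2d1, Ube2d2a and Ube2d3 work with a very broad set of ligases. Their differences were -0.31 (SE 0.28), -0.08 (SE 0.32) and -0.84 (SE 0.71), and the groups overlapped in each. A second Ube2d1 probe gave 0.92 (SE 1.00). Ube2d2b, a mouse relative of them, differed by 0.63 (SE 0.81). Ube2l3, which works with HECT and RBR ligases, differed by 0.19 (SE 1.62).

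**Figure D2:**
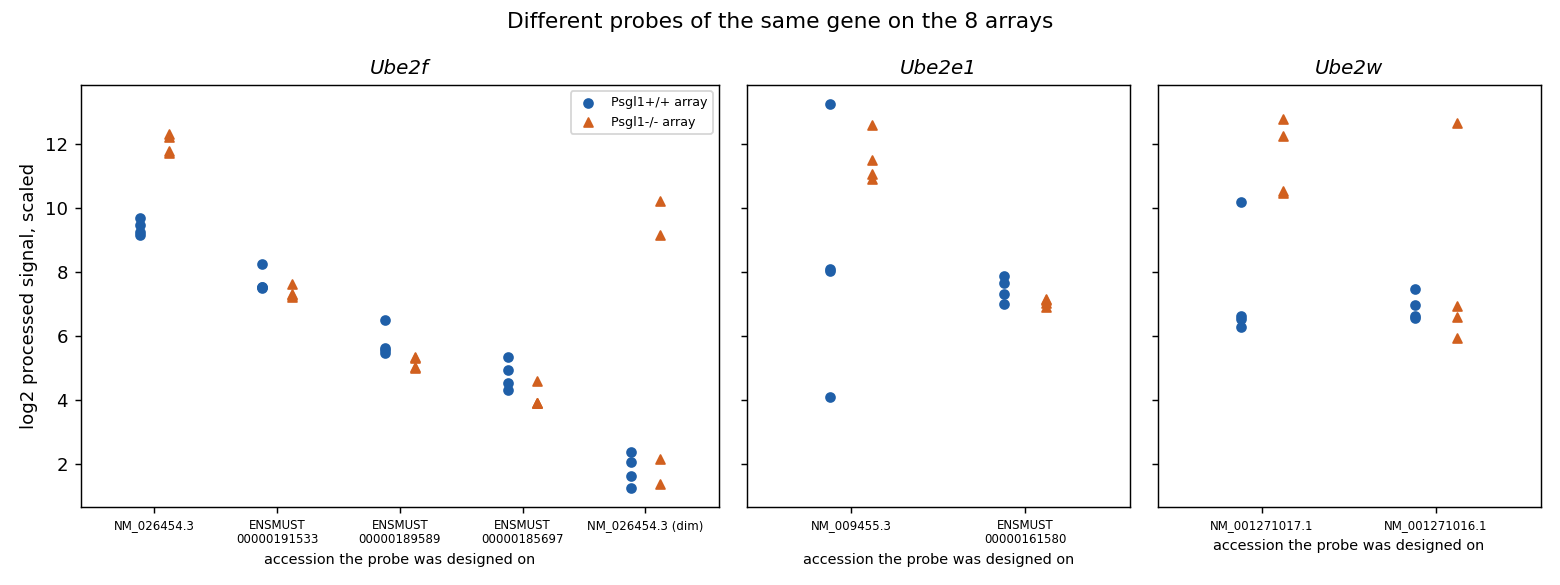
Log2 processed signal (y axis) on each of the 8 arrays for the probes of Ube2f, Ube2e1 and Ube2w, named on the x axis by the accession each was designed on. Circles are Psgl1+/+ arrays and triangles Psgl1-/- arrays. The bright Ube2f probe separates the groups by 2.61, while the 3 tested Ensembl probes of the gene give -0.35, -0.61 and -0.68.

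Cdc34 and Ube2r2 build ubiquitin chains on substrates of cullin 1 ligases, through the linkage that the proteasome reads. Cdc34 read 9.40, 10.24, 9.70 and 8.14 on the Psgl1+/+ arrays and 8.50, 8.78, 10.64 and 9.89 on the Psgl1-/- arrays. The groups overlapped over most of their range, and the difference was 0.08 (SE 0.62). Ube2r2 differed by 1.92 (SE 2.34), with Psgl1+/+ replicate 2 at 1.43 and the other 7 arrays between 7.95 and 13.25. Ube2k, which can build such chains without an E3, read 3.74, 3.95, 9.14 and 4.60 against 10.90, 9.61, 9.72 and 8.01. Psgl1+/+ replicate 3 was the high array of its group and lay above the lowest Psgl1-/- array, and the difference was 4.20 (SE 1.26). Ube2g1 differed by -0.01 (SE 0.56).

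Ube2n (Ubc13) joins ubiquitins through lysine 63 together with the catalytically inactive partners Ube2v1 or Ube2v2, in signalling by Toll-like receptors and in DNA repair. Ube2n read 11.62, 14.35, 9.36 and 10.84 on the Psgl1+/+ arrays and 9.05, 12.46, 12.74 and 12.73 on the Psgl1-/- arrays. The highest array was a Psgl1+/+ array and the lowest a Psgl1-/- array, and the difference was 0.20 (SE 1.24). Ube2v1 differed by 1.25 (SE 0.75) and Ube2v2 by -0.80 (SE 1.63).

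Ube2g2, Ube2j1 and Ube2j2 act at the endoplasmic reticulum in the degradation of misfolded proteins. Ube2g2 differed by 0.17 (SE 0.50). Ube2j1 spread over 8.1 log2 units within a group and differed by -1.20 (SE 2.21), while Ube2j2 differed by 2.30 (SE 1.39). All 3 overlapped between the groups.

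Ube2c and Ube2s start and lengthen ubiquitin chains for the anaphase-promoting complex during mitosis. Ube2c read 11.76, 10.43, 11.01 and 11.07 on the Psgl1+/+ arrays and 10.64, 10.38, 9.81 and 10.34 on the Psgl1-/- arrays, a difference of -0.78 (SE 0.35). Ube2s read 14.70, 14.35, 14.60 and 15.55 against 14.05, 14.15, 14.43 and 13.70, a difference of -0.72 (SE 0.33). In both genes the groups touched at 1 array each, Psgl1+/+ replicate 2 being the lowest of its group.

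Ube2a and Ube2b are the Rad6 enzymes, which mark chromatin and replication clamps, and Ube2t serves the Fanconi anaemia ligase FANCL. Ube2b read 8.87, 9.91, 3.07 and 3.47 on the Psgl1+/+ arrays and 11.26, 3.77, 13.83 and 12.57 on the Psgl1-/- arrays. Each group held both low and high arrays, and the difference was 4.03 with an SE of 2.55. Ube2a differed by -0.31 (SE 0.75) and Ube2t by -0.18 (SE 0.52), the latter with differences of -0.56 and 0.12 at its other probes.

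Ube2q2 belongs to a small subfamily of large E2 enzymes. It was read by 1 probe, at 5.37, 4.94, 5.30 and 5.31 on the Psgl1+/+ arrays and 11.69, 9.70, 11.52 and 12.39 on the Psgl1-/- arrays. The Psgl1+/+ arrays lay within a narrow band far below every Psgl1-/- array, and the probe was well above background on all 8. The means were 5.23 ± 0.20 and 11.32 ± 1.14 (SD, n = 4 each), a difference of 6.09 (SE 0.55) or 68.3-fold, the largest of the family. With normexp background correction it was smaller, at 4.73 on the log2 scale. No further probe on the array read this gene under the rule.

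Ube2o, which joins E2 and E3 activity in a single chain, read 5.32, 5.95, 5.01 and 6.13 on the Psgl1+/+ arrays and 4.93, 4.85, 4.77 and 4.41 on the Psgl1-/- arrays. The groups did not overlap, though the nearest arrays were close, at 5.01 and 4.93, and the difference was -0.86 (SE 0.32). The difference was -0.24 with normexp, -0.45 with cyclic loess and -0.62 in the value table, and the groups overlapped in each of these settings. Ube2h, which works with the CTLH ligase of red cell maturation, read 10.51, 11.77, 12.76 and 12.52 against 11.08, 10.57, 6.28 and 11.78. Psgl1-/- replicate 7 lay far below the other arrays, and the difference was -1.96 (SE 1.2). The remaining large or atypical members Ube2q1, Ube2ql1, Ube2u and Ube2z, the last charged by UBA6, had differences of -0.61, -0.36, 0.20 and -0.09, and their groups overlapped.

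Members taken by name alone were Ube2cbp, an E3 ligase now called Ube3d, with 1.07 (SE 0.80), the Ube2d-like gene Ube2dnl2 with -0.82 (SE 0.60), and the transcripts Ube2d-ps and Ube2uos, listed as non-coding, with -0.34 (SE 0.58) and -0.73 (SE 0.38). None of them separated the groups.

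**Figure D3:**
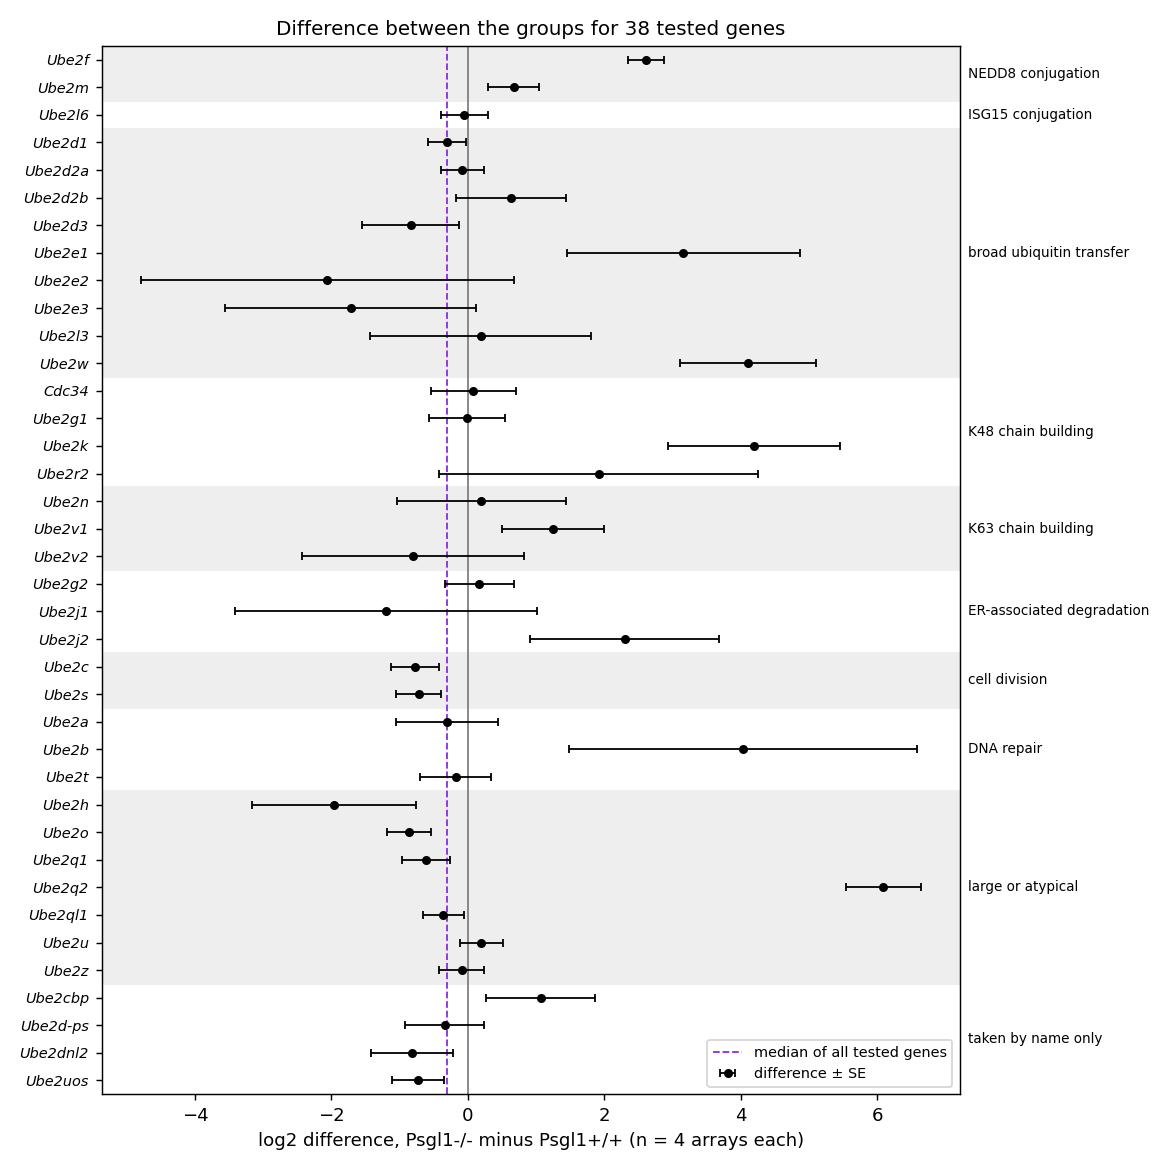
Log2 difference, Psgl1-/- minus Psgl1+/+ (x axis), of 38 of the 39 tested genes, by class of enzyme. Points are differences of means of 4 arrays per group, bars 1 SE of the limma fit, and the dashed line the median of all tested genes (-0.31). Ube2q2 lies farthest out at 6.09, and the bars are widest in Ube2e2 (SE 2.74) and Ube2b (SE 2.55).

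The arrays of a single group often disagreed. In 12 members (30.8%) the range within a group was above 4 log2 units, against 25.5% of all tested genes and 32.9% of genes read by a RefSeq mRNA probe. The widest were Ube2e2 at 11.42, Ube2r2 at 10.35, Ube2b at 10.06 and Ube2e1 at 9.16. The pooled SD of the groups had a median of 0.94 over the members, 0.93 over genes read by a RefSeq mRNA probe and 0.76 over all tested genes. Of the member probes themselves, 40 on RefSeq mRNAs had a median SD of 1.12 and 7 on Ensembl transcripts of 0.41, where all probes of these kinds had 0.94 and 0.89. Spots of the same probe agreed closely: Ube2m and Ube2j2 were each printed on 5 spots, whose SD on an array was 0.033 to 0.128 and 0.063 to 0.303.

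Agreement between probes was limited. Of the 9 members with several tested probes, all probes had the same sign in 4, namely Ube2d2b, Ube2e2, Ube2g2 and Ube2w. The largest and smallest differences of a gene lay 3.57 apart in Ube2e1, 3.29 in Ube2f and 2.98 in Ube2w. Counted by probe, 3 of the 52 tested member probes lay wholly higher in Psgl1-/- (Ube2f, Ube2q2 and Ube2w, 1 probe each), against 0.677% of all tested probes. A further 3 lay wholly lower (the lesser probe of Ube2e2, 1 of Ube2f and that of Ube2o), against 10.1% of all tested probes.

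Partner genes of the cascade were taken from lists, each tested in the same limma fit, and 0 genes of any list passed the adjusted threshold. Of 10 E1 genes, 8 had positive and 2 negative differences, with a median of 1.09 where all tested genes had -0.31. Uba1, the main ubiquitin E1, read 9.82, 7.38, 5.44 and 5.74 on the Psgl1+/+ arrays and 11.86, 10.17, 9.63 and 10.08 on the Psgl1-/- arrays. Psgl1+/+ replicate 1 overlapped with the Psgl1-/- arrays, and the difference was 3.34 (SE 1.01, adjusted p = 0.478). Mocs3, which activates Urm1, had the lowest difference of the list, -0.91 (SE 0.49, adjusted p = 0.498). Uba3 and Nae1, which form the NEDD8 E1 that charges Ube2f and Ube2m, differed by 1.53 (SE 1.15) and 0.31 (SE 1.14). Uba7, which charges Ube2l6 with ISG15, differed by 2.10 (SE 1.60).

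The 19 modifiers had 9 positive and 10 negative differences and a median of -0.13. Nedd8 itself differed by 1.49 (SE 2.63) and Isg15 by 1.61 (SE 2.17). The smallest unadjusted p-values of the list were those of Map1lc3a and Urm1, at -0.46 and -0.48 (adjusted p = 0.517 and 0.52). The sign of Urm1 depended on the probe, being 0.48 with the mean over its probes and 1.44 with RefSeq-named probes. Of 20 cullins and their RING, adaptor and neddylation partners, 11 were positive and 9 negative, with a median of 0.02. Ddb1, the adaptor of cullin 4, differed by -1.10 (SE 0.52, adjusted p = 0.481) and Rbx1, the RING subunit of most cullin ligases, by 1.55 (SE 0.91, adjusted p = 0.513). Cul5, the target of Ube2f, and its RING partner Rnf7 differed by 2.66 (SE 2.50) and 2.46 (SE 1.59). The 9 genes of NEDD8 removal, chiefly the COP9 signalosome, had a median of 0.22, with Cops2 at 2.20 (SE 1.75, adjusted p = 0.608) and Cops7b at -0.37 (SE 0.43, adjusted p = 0.732). With 1 array left out, Cops2 ran from 1.26 (without Psgl1-/- replicate 7) to 3.69 (without replicate 5) and Cops7b from -0.62 to -0.05 (without replicates 5 and 8).

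Of 7 other proteins with an E2 fold, 5 were positive and 2 negative. Atg3 was wholly higher in Psgl1-/-, against 0.667% of all tested genes, and Tsg101 wholly lower, against 10.4%. Atg3, the E2 of the LC3 lipidation pathway, read 2.25, 7.97, 7.71 and 9.41 against 9.87, 10.26, 11.48 and 10.26, a difference of 3.64 (SE 1.44, adjusted p = 0.478). Tsg101, an inactive E2 relative of the ESCRT machinery, differed by -0.60 (SE 0.24, adjusted p = 0.478). Scaling moved the Tsg101 value, to -0.08 with quantile scaling and in the value table, -0.10 with normexp and -0.15 with cyclic loess. Of 40 E3 ligases that work with these E2 enzymes, 21 were positive and 19 negative, with a median of 0.07. In 2 of them (5%), Trim25 among them, the Psgl1-/- arrays lay wholly lower, against 10.4% of all tested genes. Trim25, which ubiquitinates RIG-I, differed by -0.73 (SE 0.27, adjusted p = 0.478). For Trim25 the sign depended on the probe, being 1.7 where only probes with a RefSeq accession were used, and with quantile scaling it was -0.11.

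**Figure D4:**
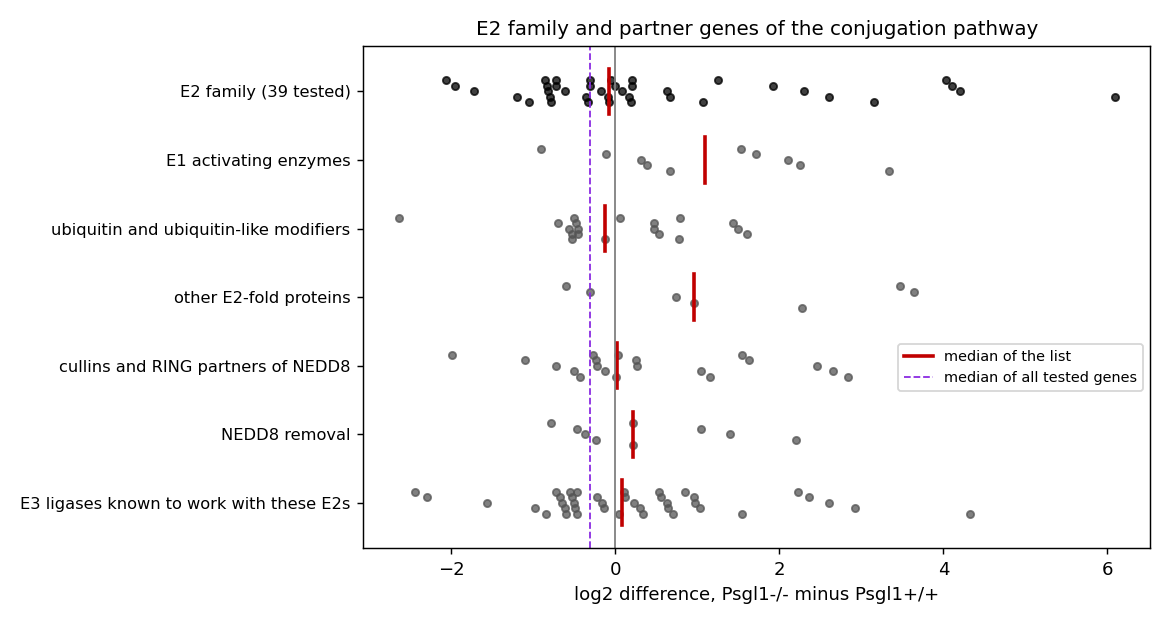
Log2 difference, Psgl1-/- minus Psgl1+/+ (x axis), of the tested genes of the E2 family and of 6 partner lists (rows). Each point is a gene, short bars are list medians and the dashed line is the median of all tested genes (-0.31). The E1 list has the highest median, 1.09, and the lists overlap over most of their range.

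Markers of other cell types were read beside these values, as summed linear signals of each list. The macrophage and monocyte markers summed to 68500 to 169000 on the Psgl1+/+ arrays and 69100 to 154000 on the Psgl1-/- arrays. Sums are compared only within a list. Neutrophil markers (8 genes, 7 well above background on all arrays) summed to 1200 to 6950 on the Psgl1+/+ arrays and 4460 to 26000 on the Psgl1-/- arrays. Of the 8, 6 had positive and 2 negative differences, with a median of 0.61. S100a9, the largest, read 5.70, 9.03, 11.43 and 4.49 against 12.54, 11.62, 13.00 and 12.70, and Ly6g, the marker the sort excludes, differed by 2.41 (SE 1.55). S100a8, the partner of S100a9, differed by 0.61 (SE 1.21), Camp by -0.68 (SE 1.02) and Cxcr2 by -0.29 (SE 0.25), and the groups overlapped in the 7 markers other than S100a9. As in Ube2f, Ube2q2 and Ube2w, every Psgl1-/- array of S100a9 lay above every Psgl1+/+ array, a pattern of 0.667% of all tested genes. Other markers were wholly lower in Psgl1-/-, against 10.4% of all tested genes. They were 2 of 8 tested microglia markers, 1 of 5 B cell, 3 of 7 neuron and 1 of 6 endothelial markers, the last being Pecam1. B cell markers summed to 33700 to 39800 and 22600 to 29900, and neuron markers to 143000 to 223000 and 100000 to 130000, in both cases with the Psgl1-/- arrays lower. The tested genes of these lists had median differences of -0.53 and -0.56. Over all tested genes the median was -0.31, and 10.4% were wholly lower in Psgl1-/-. Whether the lower sums come from the scaling or from cell content was not tested. T and NK cell markers ran from 7150 to 12300 and from 4670 to 7400, and microglia markers from 60800 to 112000 and from 48500 to 88500. The sums of the astrocyte and oligodendrocyte, endothelial and red cell markers overlapped between the groups, and no list had a gene below background on all arrays. The part of these markers in the differences of the E2 genes was not tested.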

How the data were processed

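Per the labels' protocols, RNA of sorted cells was amplified with random primers and labelled with Cy3. Per the file headers, the deposited scanner files give each spot's processed signal, an intensity that Agilent Feature Extraction 11.5.1.1 corrected for background, with other columns deposited for flags, on mouse build mm9. The members, lists and tests were chosen with earlier results of these data known. Control spots (1439) and outlier flags were left out, log2 spots of a probe averaged, and each array's 75th percentile subtracted. Of all probes, 67.1% were named, through RefSeq accessions or symbols of a GRCm38.p6 table, used for names and strand only. Each gene's brightest probe, well above background on at least 4 arrays, entered limma 3.58.1 (lmFit, eBayes, R 4.3.3, the data.table package, version 1.17.8), with Benjamini-Hochberg adjustment. The procedure was tested on simulated data. Values on every array were given for Ube2q2, Ube2f, Ube2m, Ube2l6, Ube2n, Cdc34, members whose groups do not overlap and members whose probes differ by over 2, and for some others chosen after their values were seen. Of each partner list up to 2 genes with the smallest p were named, and the NEDD8 and ISG15 partners were added after their values were seen. One member and a partner gene stay in the counts but are not reported here. The number of arrays limits the precision. The authors' deposited table of intensities (column median 132.9, identical sorted values in each column, correlation with its own array 0.9977 or more) was an alternative, and its scale is linear by this comparison. Python 3.11.15, numpy 2.4.6, pandas 2.3.3 and matplotlib 3.10.9 were also used.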

Additional observations from a re-analysis of the deposited data

Results flagged for a closer look

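In 4 of 18 groups of 4 arrays tested for a single distant array, over 9 members given on every array by the naming rule, the gap from the farthest array to the next exceeded Dixon's critical share of the range. The critical share is set to flag about 1 in 20 independent groups. These groups share arrays, and some of the members were named for their values. The 4 of 18 therefore cannot be set against that rate. Ube2w was at 10.2 on Psgl1+/+ replicate 4, with the next array at 6.64. Ube2q2 was at 4.94 on Psgl1+/+ replicate 2, with the next at 5.3, a small gap in a narrow group. Psgl1-/- replicate 5 was the distant array in Ube2m, at 9.11 against 10.15, and in Ube2n, at 9.05 against 12.46.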

How the results depend on the processing

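The number of members past the adjusted threshold was 0 in the main analysis, 1 with cyclic loess (Ube2f), 1 with the mean over all probes of a gene (Ube2q2), and 2 (Ube2f and Ube2q2) both with genes well above background on all 8 arrays and with RefSeq-named probes. Over all genes the calls were 1 in the main analysis and 4, 6, 7 and 12 in these 4 settings. Leaving out 1 array gave 0 to 1, the 1 being Ube2q2 without Psgl1-/- replicate 6, where 10 genes in all passed. Ube2f and Ube2q2 had helped to choose the family, so nothing is read from their calls. Members wholly higher in Psgl1-/- numbered 1 (Ube2q2) with the mean over all probes and 3 to 4 with 1 array left out. The share of all tested genes wholly higher was 0.667% in the main analysis, 0.669% with the mean over all probes and 1.13% to 1.48% with 1 array left out. Members wholly lower numbered 0 with cyclic loess, 0 with normexp and 0 in the value table, 2 with RefSeq-named probes, and 1 to 5 with 1 array left out, the 5 without Psgl1-/- replicate 6, 4 without replicate 7, 3 without Psgl1+/+ replicate 2 and 2 without Psgl1-/- replicate 5. The share of all tested genes wholly lower was 10.4% in the main analysis, 2.51% with cyclic loess, 5.09% with normexp, 5.2% in the value table, 9.4% with RefSeq-named probes and 11.7% to 16.5% with 1 array left out, highest without Psgl1-/- replicate 6. With 1 array left out, members at an unadjusted p under 0.05 numbered 4 to 7 of 39, against 6% to 10.4% of all tested genes. The median difference was 0.28 with cyclic loess, where the median of all genes was -0.01, and -0.2 to 0.01 with 1 array left out. Over 19 settings Ube2q2 ran from 4.73 to 6.63, Ube2f from 0.97 (mean over all probes) to 2.82 and Ube2w from 2.62 to 5.03. Trim25 reversed, to 0.48 with the mean over all probes and 1.7 with RefSeq-named probes, since other probes then stand for it. With the slide row as a block the counts were the same. No paired analysis was possible because the groups share no replicate number. The cause of the other changes was not tested.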

Other observations

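Probes named for predicted transcripts, which the naming rule did not take, but for which the files also list a RefSeq transcript of Ube2n or Ube2e2 as matching, were read as well. The one for Ube2n (XM_006542969.1) read 8.84, 7.02, 5.68 and 6.07 on the Psgl1+/+ arrays and 12.06, 4.90, 12.28 and 11.04 on the Psgl1-/- arrays, a difference of 3.17 (SE 1.68), where the Ube2n probe used above gave 0.20. High arrays were Psgl1-/- replicates 5, 7 and 8. The one for Ube2e2 (XM_006518014.1) differed by 0.20 (SE 0.96), where the probe used above gave -2.06.

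The highest signal of the 8 arrays stood on Psgl1+/+ replicate 4 in 8 members, on Psgl1-/- replicates 6 and 7 in 7 members each and on replicate 8 in 6. The lowest stood on Psgl1-/- replicate 8 in 9 members, on replicate 5 in 7 and on Psgl1-/- replicate 7 and Psgl1+/+ replicate 2 in 6 each. Over all tested genes Psgl1+/+ replicate 4 held the highest signal in 28.1%, and Psgl1-/- replicates 6, 7 and 8 in 8.79%, 9.81% and 7.93%. The lowest signal over all tested genes stood on Psgl1-/- replicates 5, 7 and 8 in 11.2%, 29.8% and 25.2%, and on Psgl1+/+ replicate 2 in 5.09%. The median log2 signal over the members was 10.64 on Psgl1-/- replicate 7 and 8.29 to 9.89 on the other 7 arrays.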
